A study of Mus musculus with 8 samples.

Results

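The 10 genes described here control and carry iron: the hepcidin genes Hamp and Hamp2, the iron sensor Tfr2, the hepcidin regulators Bmp6 and Tmprss6, the transferrin receptor Tfrc and its ligand Trf, the iron exporter Slc40a1, and the ferritin subunits Fth1 and Ftl1. They were chosen by name, all 10 were found among the 55487 genes of the count table, and all 10 passed the filter on low counts, which left 14353 genes for testing. RNA was sequenced from 4 libraries labelled Bmal1+/+ and 4 labelled Bmal1-/-, the latter described as coming from hosts with the clock gene Bmal1 (Arntl) deleted. By the same description every mouse carried a subcutaneous tumor of MC38, a mouse colorectal cancer cell line that was unaltered in Bmal1 and labelled with green fluorescent protein (GFP), and the GFP-positive cells were removed by fluorescence-activated sorting to leave the stromal vascular fraction. The labels gave no age, sex or hour of collection. They named 4 mice per group but did not tie a library to an animal, so p-values measure the spread between these libraries.

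The labels were checked against the transcripts before any iron gene was read. Arntl was at 1.55 ± 0.814 CPM (counts scaled to the TMM-adjusted library depth, SD, n = 4) in Bmal1+/+ and at 32.6 ± 2.00 CPM in the libraries labelled Bmal1-/-. The group labelled as lacking the gene thus held more of its RNA. A count per gene does not show whether that RNA is functional. Bmal1+/+ and Bmal1-/- therefore stand below for what the labels say and not for a genotype that these data show, and if the labels had been exchanged, the sign of every difference would turn. Xist was at 942 ± 111 CPM in Bmal1+/+ and 0.343 ± 0.276 CPM in the other group, whereas 4 Y-linked genes were at 0 in Bmal1+/+ and present in all 4 libraries of the other group, so that label and sex cannot be told apart in any comparison below. Transcripts of 8 hepatocyte markers summed to 91434 to 104133 CPM in Bmal1+/+ and 44084 to 57817 CPM in the libraries labelled Bmal1-/-. Alb alone was at 69270 ± 3372 and 16144 ± 2599 CPM, and no other of these markers was called lower. In the same order, 8 fibroblast markers summed to 133 to 213 and 101 to 105 CPM. The defining transcripts of a tumor stroma were thus scarce, and the labelled tissue is in doubt. Replicate 4 of the libraries labelled Bmal1-/- stood apart, with 10 acute-phase transcripts summing to 49454 CPM against 6850 to 9420 CPM in the other 3. Its replicate number is that of the sample description, while the number in its sample title is out of sequence with those of the other 3. Total counts ran from 14054825 to 18449143 per library, and 3 counts, the floor used here, correspond to 0.163 to 0.213 CPM; such floors cover counting error only.

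Hepcidin is a small peptide hormone made mainly by hepatocytes. It binds ferroportin, the product of Slc40a1 and the known cellular iron exporter, and causes its degradation, which keeps iron inside macrophages, enterocytes and hepatocytes. Its gene is switched on by bone morphogenetic proteins through SMAD factors when iron is plentiful and by interleukin-6 through STAT3 in inflammation, and the protease TMPRSS6 restrains the former route by cleaving the co-receptor hemojuvelin. Inside the cell, iron regulatory proteins bind a short hairpin, the iron-responsive element, which blocks translation when it lies before the coding region and stabilises the mRNA when it lies after it.

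Mice carry a pair of hepcidin genes side by side. Hamp (ENSMUSG00000050440) lay on the minus strand at chr7:30942368-30944032 of GRCm38, and Hamp2 (ENSMUSG00000056978) on the same strand at chr7:30922372-30924681. The 250 bases before each RefSeq start site (GRCm38.p6) are shown because these neighbours are near-identical there and yet differed between the groups by very unequal amounts. Capitals mark the letters of the BMP response element, GGCGCC in Hamp and GGCACC at the aligned place in Hamp2, and then the STAT3 letters TTCTTGGAA; a second GGCACC that ends close to the Hamp2 start is left in lower case.
Hamp, chr7:30944030-30944279: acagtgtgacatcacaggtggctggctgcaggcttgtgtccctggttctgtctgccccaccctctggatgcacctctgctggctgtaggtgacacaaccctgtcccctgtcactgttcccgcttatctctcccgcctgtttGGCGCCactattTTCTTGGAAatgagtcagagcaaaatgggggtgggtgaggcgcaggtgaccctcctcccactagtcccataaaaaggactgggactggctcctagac
Hamp2, chr7:30924182-30924431: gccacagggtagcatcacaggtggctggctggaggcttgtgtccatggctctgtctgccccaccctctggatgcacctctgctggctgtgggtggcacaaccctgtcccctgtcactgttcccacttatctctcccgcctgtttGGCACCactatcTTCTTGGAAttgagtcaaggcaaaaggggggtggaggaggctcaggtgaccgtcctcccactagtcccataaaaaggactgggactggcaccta

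These windows shared 227 of 253 aligned columns, 89.7% identity. The BMP element began 109 bases before the start of Hamp and 106 bases before that of Hamp2, and differed by G4A (the Hamp base, the position counted from 1 at the first base of the element, the Hamp2 base). The STAT3 letters followed at 97 and 94 bases and were identical. Searched on both strands of 32851 RefSeq promoter windows of the same length, GGCGCC occurred in 9.59%, GGCACC in 12.9% and TTCTTGGAA in 0.365%. The E-box letters CACGTG, which the BMAL1 and CLOCK pair is known to bind, occurred in 6.02% of windows, in neither hepcidin window, and in that of Bmp6 at 127 bases before the start. The window of Tfrc also held GGCGCC, at 89 bases, and in a longer annotated transcript the Hamp2 window is intronic. Such letter matches describe the windows and show no binding. The promoter table held 7 of the 10 genes, and lacked Slc40a1, Trf and Tmprss6.

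Both hepcidin transcripts were lower in the libraries labelled Bmal1-/-, Hamp moderately and Hamp2 to a small remainder. Hamp was at 614, 634, 842 and 831 CPM in Bmal1+/+ replicates 1 to 4 and at 405, 469, 535 and 358 CPM in the libraries labelled Bmal1-/-. The groups did not overlap, and replicate 4, the library with high acute-phase transcripts, held the lowest value of all 8. The fall was 1.65-fold on the means, 730 ± 123 against 442 ± 77.0 CPM (SD, n = 4), and the log2 fold change was -0.73 (SE 0.17, 95% interval -1.11 to -0.34; adjusted p = 0.0105, edgeR quasi-likelihood test, Benjamini-Hochberg over all tested genes, as for every adjusted p below). In bulk RNA, fewer cells of a type and less RNA per cell cannot be told apart. Of the 8 hepatocyte markers, Alb fell (log2 fold change -2.10, adjusted p = 6.80e-05), Apoa1 rose (1.58, adjusted p = 0.00107) and the other 6 were not called; their part in the fall of Hamp was not tested.

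Hamp2 was at 728, 726, 218 and 217 CPM in Bmal1+/+ and at 13.4, 9.49, 8.18 and 2.65 CPM in the libraries labelled Bmal1-/-. Bmal1+/+ replicates 1 and 2 were near-equal and high, replicates 3 and 4 near-equal and lower, and the lowest of them was still far above the highest library labelled Bmal1-/-. In the same 4 libraries Hamp ran the other way, with the higher values in replicates 3 and 4. The mean of Hamp2 went from 472 ± 294 to 8.44 ± 4.46 CPM, 56.0-fold lower, with a log2 fold change of -5.80 (SE 0.63, 95% interval -7.22 to -4.39; adjusted p = 1.66e-04). Its lowest library still held 39 counts, well over the floor.

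**Figure D1:**
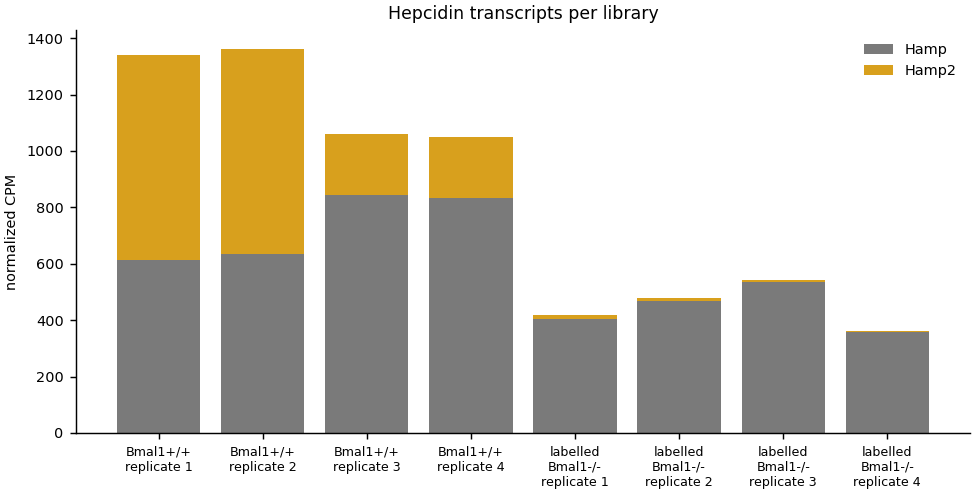
Stacked normalized CPM of Hamp (grey) and Hamp2 (gold) in each of the 8 libraries. The stacks of the Bmal1+/+ libraries reach 1048 to 1360 CPM, with a Hamp2 part that is large in replicates 1 and 2, and those of the libraries labelled Bmal1-/- reach 361 to 543 CPM with hardly any Hamp2.

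Because the hepcidin messages are alike, their balance within a library was also read. Hamp2 made up 54.2%, 53.4%, 20.6% and 20.7% of the hepcidin counts in Bmal1+/+ and 3.21%, 1.98%, 1.51% and 0.733% in the libraries labelled Bmal1-/-. In the authors' FPKM, which divide Hamp2 by a longer length, the shares were 32.2%, 31.4%, 9.38% and 9.45% against 0.295% to 1.31%, and the difference of the group means was -19.9 percentage points in place of -35.4 by counts. On either scale the share fell into a high and a middle pair within Bmal1+/+ and was low in every library of the other group. The transcripts are 410 and 437 bases long, 93.0% identical over 417 aligned columns, with identical runs of at most 87 bases, so the counting could have moved reads between them. Summed into 1 feature after the data were seen, Hamp and Hamp2 together differed by -1.42 on the log2 scale (adjusted p = 2.65e-04), and the sums of 1048 to 1360 CPM and 361 to 543 CPM did not overlap. A long noncoding RNA on the opposite strand, Gm44662, spans both genes and reached 165 counts in a library at most, against 39 to 12090 for Hamp2; whether strand was used in counting is not given in the sources used here. Usf2, the next gene beyond Hamp, named after its value was seen, was at 58.2 ± 6.56 and 68.9 ± 13.9 CPM (log2 fold change 0.24, adjusted p = 0.24).

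Upstream of hepcidin, the inducing ligand was lower and the inhibitory protease higher in the libraries labelled Bmal1-/-. Bmp6, the ligand that signals iron load to hepatocytes (chr13:38345107-38500302), was at 12.6, 15.5, 14.1 and 10.6 CPM in Bmal1+/+ and at 9.74, 8.31, 7.05 and 9.09 CPM in the libraries labelled Bmal1-/-. The lowest Bmal1+/+ library stood just over the highest of the other group. Bmp6 fell by 0.62 on the log2 scale (SE 0.16, 95% interval -0.98 to -0.27; adjusted p = 0.0145), from 13.2 ± 2.11 to 8.55 ± 1.16 CPM. Bmp6 is made mostly by sinusoidal endothelial cells. Of 8 endothelial markers, 6 fell in the same comparison, where 16.2% of all tested genes did. Of the sinusoidal markers, Lyve1 (-0.55, adjusted p = 0.0386) and Oit3 (-0.43, adjusted p = 0.0334) were among the 6 that fell. Stab2 (-0.06, adjusted p = 0.74) and Clec4g (-0.26, adjusted p = 0.0903) were not called. The 8 summed to 327 to 380 CPM in Bmal1+/+ and 228 to 311 CPM in the libraries labelled Bmal1-/-. The part of these markers in the result was not tested. The annotated span of Bmp6 overlaps Txndc5 and an antisense gene on the opposite strand, whose reads cannot be told apart without strand.

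Tmprss6, which encodes the protease matriptase-2 (chr15:78439667-78468634), was at 456, 388, 376 and 381 CPM in Bmal1+/+ and at 759, 798, 584 and 680.2 CPM in the libraries labelled Bmal1-/-. All 4 of the latter were above all 4 of the former, and Bmal1+/+ replicate 1 stood over its tightly grouped partners. Tmprss6 rose 1.76-fold, from 400.05 ± 37.5 to 705 ± 94.8 CPM (log2 fold change 0.82, SE 0.14, 95% interval 0.51 to 1.13; adjusted p = 0.00197). It was the only one of the 10 genes called higher in this fit.

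Tfr2, the hepatocyte sensor of iron-loaded transferrin (chr5:137569840-137587481), was at 310, 286, 358 and 282 CPM in Bmal1+/+ and at 365, 384, 404 and 576 CPM in the libraries labelled Bmal1-/-. The groups did not overlap, but the gap was narrow and replicate 4 was well above the rest. Its log2 fold change was 0.48 (SE 0.17, 95% interval 0.11 to 0.85; adjusted p = 0.0503), just short of the threshold of 0.05. DESeq2, limma-voom, scaling by library size alone and limma on log2 FPKM put it past the threshold, with adjusted p of 0.0231, 0.0462, 0.0403 and 0.0452, and without replicate 4 it was at 0.32 (adjusted p = 0.0608).

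**Figure D2:**
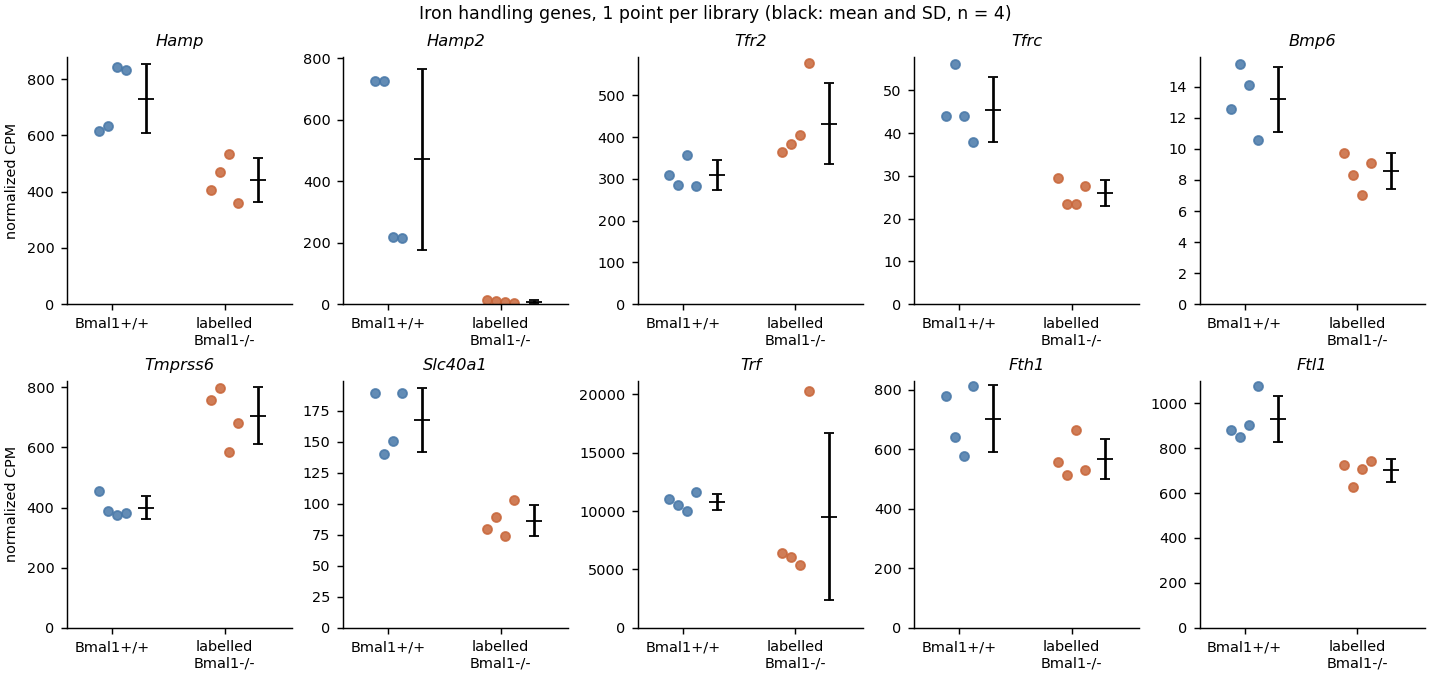
Normalized CPM of the 10 iron genes, 1 panel per gene with its own axis from 0, 1 point per library in replicate order (blue Bmal1+/+, orange labelled Bmal1-/-), with the mean and SD of n = 4 in black. The groups are separate in 8 panels and overlap in those of Trf and Fth1, and Trf shows the single high library at 20284 CPM.

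The uptake receptor and the exporter were both lower. Tfrc, the receptor that brings transferrin-bound iron into most cells (chr16:32608920-32632794), was at 44.1, 56.1, 43.9 and 37.9 CPM in Bmal1+/+ and at 29.6, 23.5, 23.4 and 27.5 CPM in the libraries labelled Bmal1-/-. Every library of the latter was below every Bmal1+/+ library. Tfrc fell 1.75-fold, from 45.5 ± 7.66 to 26.0 ± 3.06 CPM (log2 fold change -0.81, SE 0.14, 95% interval -1.12 to -0.49; adjusted p = 0.00233).

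Slc40a1, the gene of ferroportin and the target of hepcidin (chr1:45908068-45926523), was at 190, 141, 151 and 190 CPM in Bmal1+/+ and at 79.2, 89.5, 74.2 and 103 CPM in the libraries labelled Bmal1-/-. The groups were well separated. Slc40a1 fell 1.94-fold, from 168 ± 25.7 to 86.4 ± 12.6 CPM (log2 fold change -0.96, SE 0.15, 95% interval -1.28 to -0.63; adjusted p = 0.00114), and without replicate 4 of the libraries labelled Bmal1-/- it was at -1.05. Ferroportin is abundant in macrophages of the liver. Of 8 Kupffer cell and macrophage markers, 7 fell in the same comparison, where 16.2% of all tested genes did, and Marco was not called. The 8 summed to 508 to 640 CPM in Bmal1+/+ and 223 to 461 CPM in the libraries labelled Bmal1-/-, with the highest of the latter in replicate 4. None of the 8 markers was at the floor. Their part in the result was not tested.

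Trf, which encodes the plasma iron carrier transferrin (chr9:103204001-103230444), was at 11000.4, 10505.5, 9994 and 11667 CPM in Bmal1+/+ and at 6390.4, 6075, 5346 and 20284 CPM in the libraries labelled Bmal1-/-. Replicates 1 to 3 of the latter lay under every Bmal1+/+ library, and replicate 4 lay above them all. With all 8 libraries the log2 fold change was -0.18 (SE 0.40, 95% interval -1.08 to 0.72; adjusted p = 0.76), and without replicate 4 it was -0.86 with an adjusted p of 0.00111, so that 1 library decided the call. An overlapping gene on the same strand, Gm20425, is annotated, but no gene of that name was found in the count table, and sharing of reads was not tested.

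Of the storage proteins, the light subunit was lower and the heavy subunit did not pass the test. Ftl1, the light chain of ferritin (chr7:45457944-45459884), was at 881, 849, 904 and 1078 CPM in Bmal1+/+ and at 727, 629, 709 and 744 CPM in the libraries labelled Bmal1-/-, without overlap. It fell from 928 ± 103 to 703 ± 50.9 CPM (log2 fold change -0.40, SE 0.13, 95% interval -0.69 to -0.12; adjusted p = 0.0384). This call was fragile: the adjusted p was 0.0654 with no filter on low counts and 0.0734 with the replicate number as a block, and it held in only 1 of the 8 fits that left out a library, the one without replicate 4 of the libraries labelled Bmal1-/-. A processed copy, Ftl1-ps1, shares a run of 524 identical bases with Ftl1 and was itself at 1170 ± 119 and 947 ± 168 CPM (log2 fold change -0.30, adjusted p = 0.17). Summed with that copy after the data were seen, Ftl1 was at -0.35 on the log2 scale (adjusted p = 0.0694).

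Fth1, the heavy chain that oxidises iron for storage (chr19:9980598-9985098), was at 780.1, 641, 577 and 813 CPM in Bmal1+/+ and at 558, 514, 664 and 531 CPM in the libraries labelled Bmal1-/-. The groups overlapped, with replicate 3 of the libraries labelled Bmal1-/- above Bmal1+/+ replicates 2 and 3. Its log2 fold change of -0.31 (SE 0.15, 95% interval -0.65 to 0.03; adjusted p = 0.15) was not called. The ratio of heavy to light chain in the authors' FPKM was 0.354 ± 0.0473 in Bmal1+/+ and 0.378 ± 0.0444 in the libraries labelled Bmal1-/-, with overlapping ranges, and no difference beyond the spread was seen. The light chain in this ratio leaves out the reads counted for Ftl1-ps1.

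**Figure D3:**
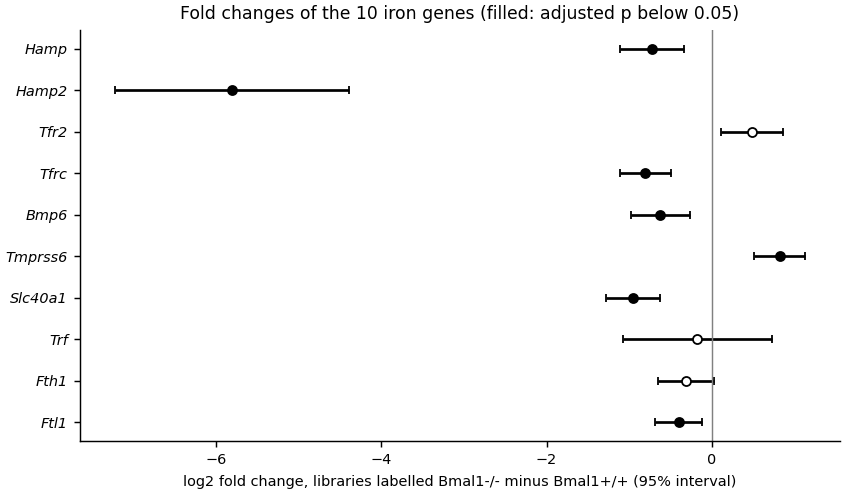
Log2 fold change of each iron gene, libraries labelled Bmal1-/- minus Bmal1+/+, with the 95% interval from the edgeR fit. Filled points have an adjusted p below 0.05: Tmprss6 lies to the right of 0, and Hamp, Hamp2, Tfrc, Bmp6, Slc40a1 and Ftl1 lie to the left, with Hamp2 far from the others at -5.80.

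Counted over the set, 7 of the 10 genes passed an adjusted p of 0.05, in a comparison in which 31.1% of all tested genes did. Of these, 6 were lower, where 16.2% of all tested genes were called lower, and 1 was higher, where 14.9% were. The groups did not overlap in 8 of the 10 genes, against 33.4% of all tested genes. Of the 8, 6 were lower (16.8% of all tested genes were lower without overlap) and 2, Tfr2 and Tmprss6, were higher (16.7%). The median log2 fold change of the 10 was -0.51, beside 0.02 over all tested genes. Under the study's own criterion, an absolute log2 fold change over 1 with an unadjusted p under 0.05, Hamp2 alone passed, where 14.1% of all tested genes did, and Slc40a1 joined it without the library of high acute-phase transcripts (-1.05), without Bmal1+/+ replicate 2 (-1.03) and without Bmal1+/+ replicate 3 (-1.004). Without the first of these, 7 genes were called lower and 1 higher. These 10 genes were picked with results of these data known, so the counts describe the set and test nothing about it.

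Levels were compared between genes only per length, in the authors' FPKM. In Bmal1+/+ the order of the means was Trf at 2121, Hamp at 1762, Hamp2 at 455, Ftl1 at 286, Fth1 at 101, Tmprss6 at 74.3, Tfr2 at 34.7, Slc40a1 at 15.4, Tfrc at 4.60 and Bmp6 at 2.89. Neighbours overlapped between libraries for Trf and Hamp, for Hamp2 and Ftl1, and for Fth1 and Tmprss6. In the libraries labelled Bmal1-/- Trf at 1888 and Hamp at 1087 again led with overlapping ranges, followed by Ftl1 at 221, Tmprss6 at 134, Fth1 at 83.3 and Tfr2 at 49.2. Hamp2 at 8.36 had dropped to the level of Slc40a1 at 8.08, whose range it overlapped, and Tfrc at 2.68 and Bmp6 at 1.91 stayed last. The FPKM divide by 1 fixed length per gene, which was 410 bases for Hamp but 1025 for Hamp2, 6855 for Fth1, 8831 for Tfr2 and 10761 for Slc40a1. Apart from that of Hamp, these lengths exceed a single mRNA of the gene and lower its FPKM.

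The iron-responsive element was looked for in the transcripts because it ties 4 of the 10 genes to iron inside the cell. The pattern was a bulged C followed after a 5-base stem by CAGTG, 1 base other than G, and a paired stem of 5 bases. It occurred in 222 of 21877 protein-coding genes (1.01%) and was found in Fth1, Ftl1 and Slc40a1 before the coding region and 4 times in Tfrc after it. The copy Ftl1-ps1 held the same letters as Ftl1. The matches are printed 5′ to 3′ on the strand of the gene (GRCm38), with the loop letters CAGTG in capitals.
Fth1, chr19:9982732-9982760: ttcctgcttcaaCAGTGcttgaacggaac
Ftl1, chr7:45459779-45459807: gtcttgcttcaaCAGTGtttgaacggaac
Slc40a1, chr1:45925465-45925493: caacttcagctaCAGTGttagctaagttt
Tfrc, chr16:32631219-32631247: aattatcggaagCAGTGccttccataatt
Tfrc, chr16:32631598-32631626: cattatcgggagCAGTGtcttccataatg
Tfrc, chr16:32631663-32631691: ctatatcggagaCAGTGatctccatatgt
Tfrc, chr16:32631710-32631738: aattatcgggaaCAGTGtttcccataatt

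Beside these sites, the mRNA of Tfrc, the gene with the element after its coding region, was lower in the libraries labelled Bmal1-/- (log2 fold change -0.81), and among the genes with the element before it Slc40a1 (-0.96) and Ftl1 (-0.40) were lower and Fth1 was at -0.31 without passing the test. Both iron regulatory proteins were also lower at the mRNA level. Aco1, the cytosolic aconitase that becomes IRP1 when it loses its iron-sulfur cluster, fell from 357 ± 30.4 to 225 ± 29.7 CPM (log2 fold change -0.67, SE 0.13; adjusted p = 0.00396). Ireb2, which encodes IRP2, fell from 124.6 ± 8.98 to 94.5 ± 6.61 CPM (-0.40, SE 0.10; adjusted p = 0.0124). Fbxl5, the iron-sensing ligase that degrades the IRPs, fell as well, from 36.5 ± 6.08 to 23.1 ± 3.35 CPM (-0.66, SE 0.15; adjusted p = 0.00932).

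The wider iron pathway was read from 5 lists of 56 genes, of which 51 could be tested. Of these, 7 (13.7%) were called lower and 8 (15.7%) higher, close to the 16.2% and 14.9% of all tested genes, so the counts are no result about these lists. In the BMP and SMAD route to hepcidin, 1 of 16 tested genes fell (6.25%, against 16.2% of all tested genes) and 3 rose (18.8%, against 14.9%), with a median log2 fold change of -0.05. Bmp2, the endothelial ligand that acts beside Bmp6, fell from 46.7 ± 5.31 to 24.6 ± 2.70 CPM (-0.92, SE 0.12; adjusted p = 4.57e-04). Hjv, the hemojuvelin co-receptor and substrate of TMPRSS6, rose from 65.6 ± 26.5 to 137 ± 8.31 CPM (1.06, SE 0.26; adjusted p = 0.012). Atoh8, a transcription factor of the hepcidin gene, rose from 11.3 ± 1.56 to 27.4 ± 5.73 CPM (1.27, SE 0.17; adjusted p = 4.87e-04), and Smad1 rose by 0.44. Id1, Smad6 and Smad7, which are among the readouts of BMP signalling, were not called. Id1 was at -0.82 (adjusted p = 0.0765), Smad6 at 0.01 (0.98) and Smad7 at 0.08 (0.76).

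In the IL-6 and STAT3 route 1 of 8 tested genes fell (12.5%, against 16.2% of all) and none rose (14.9% of all), with a median of -0.11, and Il6 itself was too low to test. Cebpb, a liver factor of the acute-phase response, fell from 626 ± 92.3 to 395 ± 78.0 CPM (-0.66, SE 0.17; adjusted p = 0.0167), and its adjusted p was 0.0555 with the replicate number as a block. In iron uptake and reduction 2 of 14 tested genes fell (14.3%, against 16.2% of all) and 3 rose (21.4%, against 14.9%), with a median of 0.29. Slc11a2, the ferrous iron importer DMT1, rose from 24.2 ± 2.89 to 53.7 ± 6.91 CPM (1.15, SE 0.13; adjusted p = 1.98e-04). Steap3, the ferrireductase of the transferrin cycle, rose from 11.1 ± 2.37 to 19.7 ± 1.70 CPM (0.83, SE 0.16; adjusted p = 0.00336). Its relative Steap2 fell from 8.81 ± 2.33 to 3.23 ± 2.14 CPM (-1.45, SE 0.38; adjusted p = 0.017). The zinc and iron importer Slc39a8 rose by 0.34, and the mitochondrial iron importer Slc25a37 was at -0.47 (adjusted p = 0.0171).

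In iron export, storage and the IRP system 3 of 11 tested genes fell, those named beside the element above (27.3%, against 16.2% of all), and 2 rose (18.2%, against 14.9%), with a median of -0.11. Cp, the plasma ferroxidase ceruloplasmin that works with ferroportin, was at 831, 630.5, 682 and 793 CPM in Bmal1+/+ and at 1321, 1308, 1309 and 2883 CPM in the libraries labelled Bmal1-/-. It rose (log2 fold change 1.22, SE 0.27; adjusted p = 0.00824), and without replicate 4 was at 0.84 (adjusted p = 0.00101). Among the erythroid signals to hepcidin, Erfe and Epo were too low to test, and neither Gdf15 (-1.39, adjusted p = 0.0525) nor Epor (-0.84, adjusted p = 0.0614) was called. Of the erythroid cell markers, Slc4a1 and Epb42 were at the floor in these libraries.

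**Figure D4:**
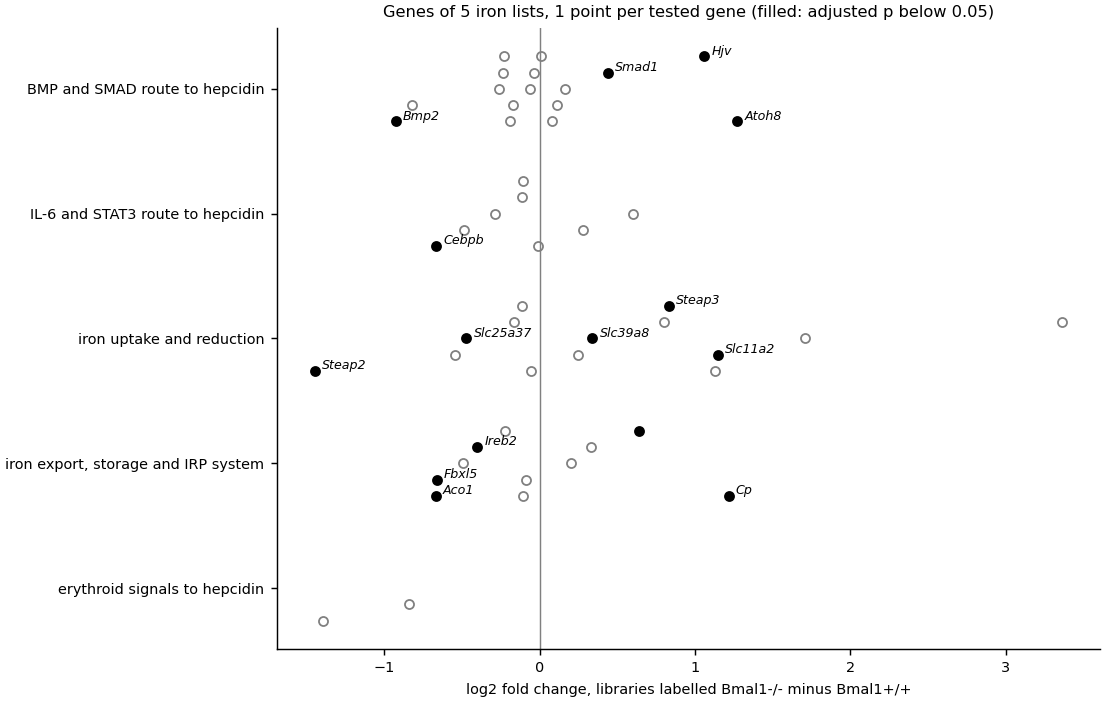
Log2 fold change, libraries labelled Bmal1-/- minus Bmal1+/+, of the 51 tested genes in the 5 iron lists, 1 point per gene in rows set apart only for legibility. The 15 filled points have an adjusted p below 0.05, with 7 to the left of 0 and 8 to the right.

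Replicate 4 of the libraries labelled Bmal1-/- differed from its group in the genes of inflammation and in part of the iron set. All 10 acute-phase transcripts were highest in that library, and Stat3 was at 255 CPM there against 112 to 120.1 CPM in the other 3 and 101.7 to 179 CPM in Bmal1+/+. Socs3, the feedback inhibitor that STAT3 induces, was at 26.2 CPM there and between 4.80 and 17.9 CPM in the other 7 libraries. Of 61 tested iron and pathway genes, 19 (31.1%) were highest and 8 (13.1%) lowest in that library, where 14.5% and 14.3% of all tested genes were, with Trf, Tfr2 and Cp among the former and both hepcidin genes among the latter. The 5 lists include acute-phase genes such as Hp and Lcn2, that library also differed from the other 3 over genes outside them, and nothing particular to iron genes is read from these counts. Hamp2 was at 2.65 CPM there against 8.18 to 13.4 CPM in the other 3. Their part in these results was not tested. Left out, replicate 4 ended no call on the 10 genes, added that of Trf, and raised the genes of the 5 lists called lower from 7 to 11.

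**Figure D5:**
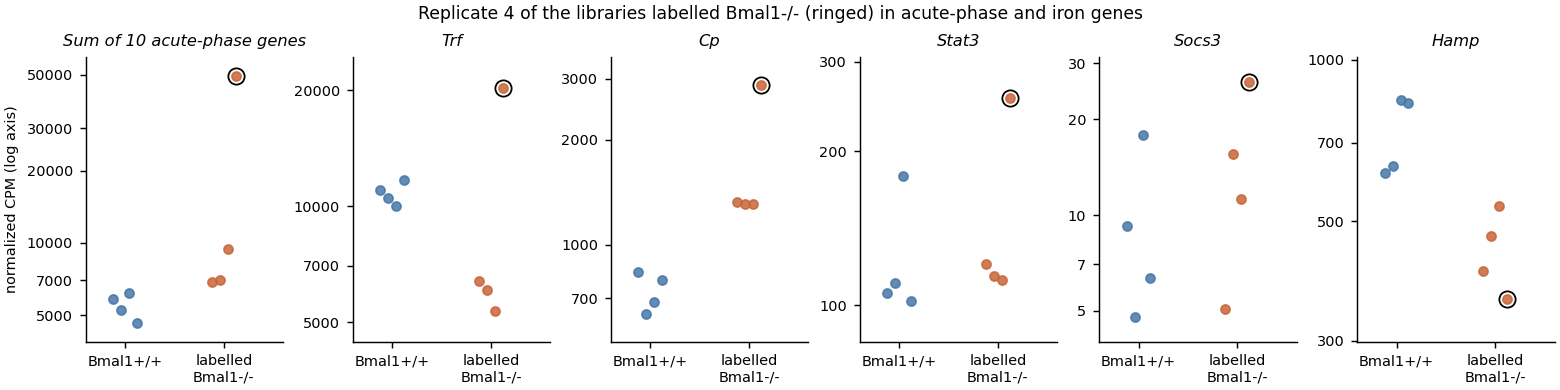
Normalized CPM on log axes for the sum of 10 acute-phase genes and for Trf, Cp, Stat3, Socs3 and Hamp, 1 point per library, with replicate 4 of the libraries labelled Bmal1-/- ringed. The ringed library is the highest of 8 in the first 5 panels and the lowest in that of Hamp.

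Genes with the most similar pattern were found by the root mean square difference of centred log2 CPM over the 8 libraries, among the 13445 tested genes averaging 1 CPM or more. For Hamp these were Zfp395 (0.110), Hadh (0.122) and A930037H05Rik (0.137), and Zfp395 ran from 42.4 to 53.8 CPM in Bmal1+/+ and from 22.2 to 35.7 CPM in the libraries labelled Bmal1-/-. For Tfr2 they were Serpinf2 (0.0730), Fnbp1 (0.0827) and Il17ra (0.0843), each highest in replicate 4 of the libraries labelled Bmal1-/-. For Tfrc they were Cyyr1 (0.105), Tmem63a (0.121) and Bmp6 (0.123), itself one of the 10. Hamp2 had no close neighbour: the nearest were Rcan2 (0.777), Abcb1a (0.834) and Cyp3a63-ps (0.840), and Rcan2 lacked the pairing of replicates seen in Bmal1+/+ for Hamp2, being at 29.7, 15.3, 13.7 and 27.1 CPM.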

How the data were processed

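The 8 sequenced libraries were labelled as stromal vascular fractions of tumors, 4 Bmal1+/+ and 4 Bmal1-/-; the transcripts put tissue and genotype labels in doubt. Per the study's methods HISAT2 was the authors' aligner (paired ends, GRCm38, Ensembl 102) and StringTie their counter; the submitters' processing notes name CASAVA 1.8 and TopHat2 2.0.6. The series text speaks of array hybridization, but the deposited values are whole-number counts. The deposited counts were tested as they stand and the deposited FPKM served only to compare levels between genes and in 1 alternative with a pseudocount of 0.1. Counts were filtered (filterByExpr), TMM-scaled and fitted with edgeR 4.0.16 (glmQLFit, glmQLFTest, prior count 0.125, R 4.3.3) over 14353 genes without covariates, and Benjamini-Hochberg adjusted; DESeq2 1.42.0 and limma 3.58.1 were alternatives. The fit was tested on simulated data. No library duplicated another. Genes named were the 10, in each list the 3 largest changes with adjusted p below 0.05 and a mean of at least 1 CPM (members of the list described in passing were named after their values were seen), and the 3 nearest patterns. The members and lists were chosen with earlier results of these data known. Replicate numbers share no stated batch. Some genes of the lists are counted but not reported here by name.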

Additional observations from a re-analysis of the deposited data

Results flagged for a closer look

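Over the iron genes, the list genes named by the rule and their shares, ratios and sums, 5 of 52 groups of 4 libraries held a library whose gap to the nearest other exceeded Dixon's 95% critical value, where chance would flag about 1 in 20. Tmprss6 was at 456 CPM in Bmal1+/+ replicate 1 against 376 to 388 CPM in the other 3. Aco1 was at 311 CPM in Bmal1+/+ replicate 3 against 367 to 376 CPM. The other 3 were all in replicate 4 of the libraries labelled Bmal1-/-: Trf at 20284 CPM against 5346 to 6390.4 CPM, Cp at 2883 CPM against 1308 to 1321 CPM, and Steap2 at 6.44 CPM against 2.13 to 2.19 CPM. The same library was highest of 8 in all 10 acute-phase transcripts, and the part of that in these values was not tested.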

How the results depend on the processing

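Hamp, Hamp2, Tfrc, Bmp6, Tmprss6 and Slc40a1 kept their direction and their call under every alternative run. Tfr2 passed the threshold under DESeq2 (0.47, adjusted p = 0.0231), limma-voom (0.47, 0.0462), library size only (0.50, 0.0403) and limma on log2 FPKM (0.49, 0.0452), which made 2 genes called higher under each of these; leaving out a library gave 0.32 to 0.56 and 1 to 2 genes called higher. Ftl1 lost its call with no filter (-0.40), with the replicate block (-0.40, adjusted p = 0.0734), summed with Ftl1-ps1 (-0.35), and in 7 of the fits without a library (-0.45 to -0.33). Trf ranged from -0.86 to 0.01, was called without replicate 4 of the libraries labelled Bmal1-/- and turned positive without replicate 3 (0.0053, adjusted p = 0.99). Genes past the study's criterion numbered 1 to 2 without a library, the second being Slc40a1. Genes of the 5 lists called lower were 11 under DESeq2 and 6 to 11 without a library. The cause of these changes was not tested. The replicate numbers did not pair the libraries (correlations of -0.06, 0.06, 0.04 and 0.04), and the block changed the call of no other of the 10 genes and, among the list genes named by the rule, only that of Cebpb. Depth did not limit the 10 genes, the lowest value being 39 counts for Hamp2.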
